A study of Mus musculus with 4 samples.

Results

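The genes described here are 10 members of the cytokine signaling pathway that runs from JAK kinases to STAT transcription factors: the suppressors *Socs1*, *Socs2*, *Socs3* and *Cish*, the kinases *Jak1* and *Jak2*, and the transcription factors *Stat3*, *Stat5a*, *Stat5b* and *Stat6*. They were chosen by name, *Socs1* being a reported target of MIZ-1, and were found by their Ensembl identifiers in a table of 41214 genes. All 10 passed the filter on low counts (10 or more counts in 2 or more libraries) and were among the 14554 genes tested. Bulk RNA-seq was made from B220+ splenocytes, without stimulation, of mice on a C57BL/6 background of 2 genotypes, with 2 libraries each. In the MIZ-1△POZ mice, labelled Miz-1DPOZ, MB1-Cre, a recombinase expressed from the *Cd79a* locus and active in B cells, removed the part of *Miz-1* (*Zbtb17*) that encodes the POZ domain, so that a protein without this domain is made. MIZ-1WT mice carried the wild-type protein, and whether they carried Cre or the floxed allele is not given in the sources used here. The mice were young adults, and cells were taken by the surface marker B220 alone, a selection that can also hold other cells.

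Cytokines bind receptors that have no kinase activity of their own and depend on attached JAK kinases. An activated JAK phosphorylates the receptor and the STAT proteins that dock there, and STAT dimers then enter the nucleus and switch on genes, among them those of the SOCS family. SOCS proteins and CISH bind the receptor or the JAK and damp the signal, so their transcripts are commonly read as a trace of recent cytokine signaling. In B cells, STAT6 carries the signal of IL-4, STAT5 that of IL-7 early in development, and STAT3 that of IL-6, IL-10 and IL-21.

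Each library held between 43026814 and 46387209 counts on genes, at which 3 counts correspond to between 0.0630 and 0.0714 CPM, the level scaled to a common library total. *Zbtb17* itself, counted over the whole gene, was 47.8 and 46.3 CPM in MIZ-1WT and 37.3 and 38.0 CPM in MIZ-1△POZ (log2 fold change -0.32, adjusted p = 0.00857). The pan-B marker *Ms4a1*, which encodes CD20, was at 3820 and 4012 CPM in MIZ-1WT and at 3308 and 3369 CPM in MIZ-1△POZ, and 7 of the 10 pan-B markers were lower and 1 was higher in MIZ-1△POZ. Markers of some other cells moved with the genotype. All 15 red pulp macrophage markers and all 4 plasma cell markers were higher in MIZ-1△POZ, and none of these was at 0 in either genotype. Other lists moved in part or not at all: 0 of 7 erythroid, 2 of 6 NK cell and 1 of 5 tested neutrophil markers were called higher. Of 6 conventional dendritic markers, 3 were higher and 1 lower. Of all tested genes, 21.1% were called higher and 18.9% lower. The genotypes also differed in transcripts of the sex chromosomes. *Xist* was at 1.12 and 1.43 CPM in MIZ-1WT and at 801 and 930 CPM in MIZ-1△POZ. The Y-linked *Ddx3y* was at 363 and 354 CPM against 14.3 and 14.2 CPM. Y-linked reads were thus still present in MIZ-1△POZ, with 680 and 622 counts of *Ddx3y* and 488 and 436 of *Eif2s3y*. Their source was not tested. The sex of the mice and the genotype cannot be told apart. In bulk RNA, fewer cells of a type and less RNA per cell cannot be told apart either.

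The 4 suppressor genes were higher in MIZ-1△POZ libraries, *Stat6* was lower, and the other 5 genes did not pass the test. Transcripts of *Socs2* rose 2.56-fold, of *Cish* 2.37-fold, of *Socs3* 1.88-fold and of *Socs1* 1.63-fold, while *Stat6* fell by 28.7%. Adjusted p-values come from the quasi-likelihood test of edgeR, adjusted by the method of Benjamini and Hochberg over all 14554 genes at a threshold of 0.05, and every log2 fold change is MIZ-1△POZ over MIZ-1WT. In this comparison 21.1% of all tested genes were called higher and 18.9% lower, 40.0% in all, so that 5 calls among 10 members are close to the background. The median log2 fold change was -0.02 over the 10 genes and -0.01 over all tested genes. The libraries of the genotypes did not overlap in CPM for 7 members, against 74.8% of all tested genes. MIZ-1△POZ lay above for 4 members, against 37.2% of tested genes, and below for 3 members, against 37.6%. With a log2 fold change of at least 0.6, the size limit of the study, and an unadjusted p under 0.05, chosen here, all 4 suppressors were higher, as were 15.0% of all tested genes, and none of the 10 genes was lower. These limits called 20.3% of all tested genes in either direction.

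**Figure D1:**
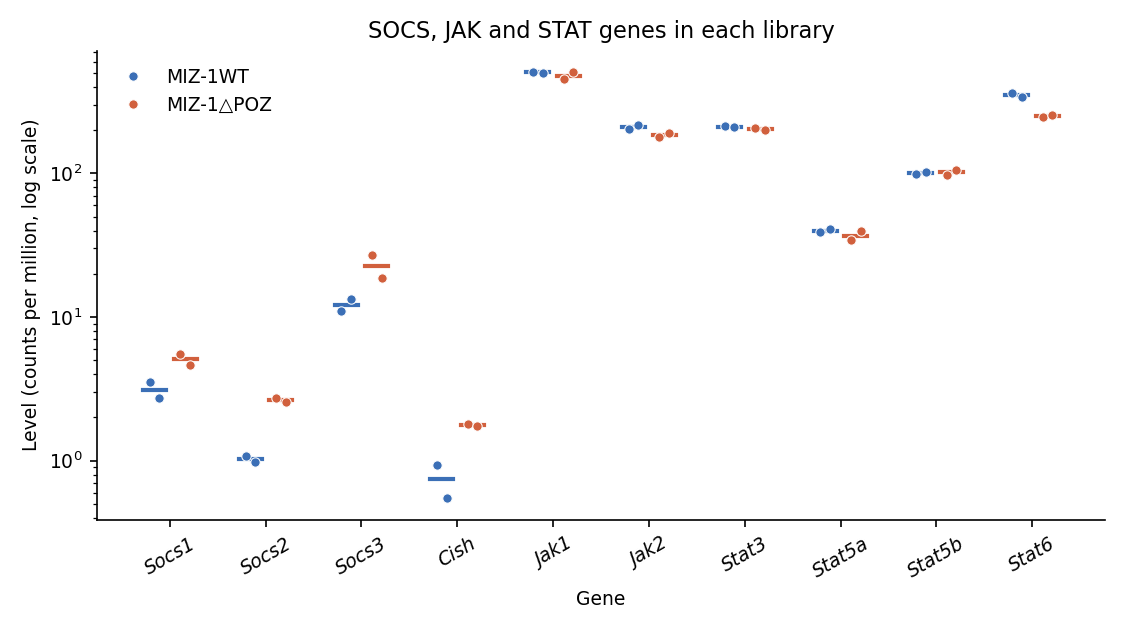
Level of each of the 10 genes in each library, in CPM on a log axis; points are the 2 MIZ-1WT (blue) and 2 MIZ-1△POZ (orange) libraries and bars their means. The suppressors *Socs1*, *Socs2*, *Socs3* and *Cish* lie low on the scale with the MIZ-1△POZ points above the MIZ-1WT points, the kinases and STAT genes lie higher, and *Stat6* is the one with clearly lower MIZ-1△POZ points (247 and 257 against 364 and 341).

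*Socs1* (ENSMUSG00000038037, chr16:10782240-10785536, minus strand) encodes a suppressor that binds and inhibits JAK kinases and is best known for limiting interferon-γ signaling. MIZ-1WT libraries had 153 and 115 *Socs1* counts and MIZ-1△POZ libraries 263 and 205, or 3.51 and 2.74 CPM against 5.52 and 4.67 CPM. Both MIZ-1△POZ libraries were above both MIZ-1WT libraries, with 3.12 ± 0.545 CPM (SD, n = 2) in MIZ-1WT and 5.10 ± 0.604 CPM (SD, n = 2) in MIZ-1△POZ. *Socs1* was called at a log2 fold change of 0.71 (standard error 0.19, 95% interval 0.24 to 1.17, adjusted p = 0.0312). This call was lost when MIZ-1WT replicate 1 (adjusted p = 0.0664), MIZ-1WT replicate 2 (adjusted p = 0.154) or MIZ-1△POZ replicate 1 (adjusted p = 0.0947) was left out, and the log2 fold change then lay between 0.54 and 0.90.

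*Socs2* (ENSMUSG00000020027, chr10:95385362-95417180, minus strand), a STAT5-induced suppressor best known for restraining growth hormone signaling, had 47 and 41 counts in MIZ-1WT and 129 and 112 counts in MIZ-1△POZ. On the CPM scale this was 1.08 and 0.975 CPM against 2.71 and 2.55 CPM. The gap between the genotypes was wide beside the differences between replicates, and MIZ-1WT replicates were closer for *Socs2* than for the other suppressors. The log2 fold change was 1.36 (standard error 0.20, 95% interval 0.87 to 1.84, adjusted p = 0.00499), and it was past the threshold whichever library was left out, at values between 1.29 and 1.43.

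*Socs3* (ENSMUSG00000053113, chr11:117966079-117970047, minus strand), which is induced by STAT3 and blocks signaling from the IL-6 receptor chain gp130, had the most counts of the suppressors. There were 480 and 557 counts in MIZ-1WT and 1278 and 824 counts in MIZ-1△POZ, or 11.0 and 13.2 CPM against 26.8 and 18.8 CPM. The genotypes did not overlap, but MIZ-1△POZ replicate 1 stood well above MIZ-1△POZ replicate 2. The log2 fold change was 0.91 (standard error 0.19, 95% interval 0.45 to 1.38, adjusted p = 0.0143), and between 0.63 and 1.16 with 1 library left out. Without MIZ-1WT replicate 1 the adjusted p was 0.0908.

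*Cish* (ENSMUSG00000032578, chr9:107296026-107302784, plus strand) encodes CIS, a STAT5-induced suppressor that binds activated cytokine receptors. It had the fewest counts of all members, with 41 and 23 counts in MIZ-1WT and 86 and 76 counts in MIZ-1△POZ, or 0.940 and 0.547 CPM against 1.81 and 1.73 CPM. The MIZ-1△POZ libraries were close to each other and above both MIZ-1WT libraries, which themselves differed widely. The log2 fold change was 1.24 (standard error 0.30, 95% interval 0.50 to 1.99, adjusted p = 0.0228). It ranged from 0.91 to 1.69 with 1 library left out, and the call was lost without MIZ-1WT replicate 2 (adjusted p = 0.0872) or MIZ-1△POZ replicate 1 (adjusted p = 0.0510). The annotation places 2 genes on the opposite strand over parts of *Cish* exons, *Gm17040* and *Gm17041*, and these had at most 2 counts in any library.

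Promoters of the suppressors are shown because STAT proteins bind there. RefSeq windows on GRCm38.p6 (250 bases before to 50 bases after a gene's start) were given for 9 of the 10 members, *Socs2* having none, and were searched on both strands for TTCNNNGAA, the palindromic site of most STAT dimers, TTCNNNNGAA, the wider spacing preferred by STAT6, and GAAANNGAAA, an element of interferon-regulated promoters bound by IRF proteins. TTCNNNGAA was found in *Cish* and *Socs3* among the 9 members and in 8.30% of all 32851 promoter windows. GAAANNGAAA was found in *Socs1* alone among the members and in 3.44% of all windows, and TTCNNNNGAA in no member and in 6.95% of all windows. The *Cish* stretch (chr9:107296654-107296683, plus strand) holds 2 matches that begin at the RefSeq start and lie within the first exon of the longest annotated transcript. The *Socs3* stretch (chr11:117969501-117969530, minus strand) lies before the RefSeq start but inside the annotated span of the gene given above. The *Socs1* stretch (chr16:10785537-10785786, minus strand) is the 250 bases before the start, with 2 overlapping matches. Capitals mark the matches, which are matches of letters and not measured binding.
Cish: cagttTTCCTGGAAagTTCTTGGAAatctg
Socs3: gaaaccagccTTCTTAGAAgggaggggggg
Socs1: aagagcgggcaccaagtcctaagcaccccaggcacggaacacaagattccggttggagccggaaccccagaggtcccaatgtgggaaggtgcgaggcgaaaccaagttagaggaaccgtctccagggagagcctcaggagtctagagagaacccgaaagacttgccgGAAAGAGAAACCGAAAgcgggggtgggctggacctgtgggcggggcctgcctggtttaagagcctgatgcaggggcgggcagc

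None of the other SOCS genes was called higher. *Socs4* was 123 and 82.1 CPM in MIZ-1WT and 55.0 and 65.7 CPM in MIZ-1△POZ (log2 fold change -0.76, adjusted p = 0.0266), and *Socs5*, reported to act on the EGF and IL-4 receptors, was 27.0 and 26.1 CPM against 20.0 and 21.5 CPM (log2 fold change -0.36, adjusted p = 0.0144). Both fell, and neither genotype overlapped the other. Each of these calls was lost when 1 library was left out, for *Socs4* without MIZ-1WT replicate 1 (adjusted p = 0.0772) or MIZ-1△POZ replicate 1 (adjusted p = 0.0507), and for *Socs5* without MIZ-1WT replicate 1 (adjusted p = 0.0989) or MIZ-1WT replicate 2 (adjusted p = 0.0696). *Socs6*, at a log2 fold change of 0.04 (95% interval -0.11 to 0.20), and *Socs7*, at -0.14 (95% interval -0.28 to -0.01, adjusted p = 0.0869), did not pass the test. Across the 8 genes of the family, the 4 highest fold changes belonged to *Socs2*, *Cish*, *Socs3* and *Socs1*. These are the members, which were chosen with earlier results of these data known, so the ranking is a description only.

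**Figure D2:**
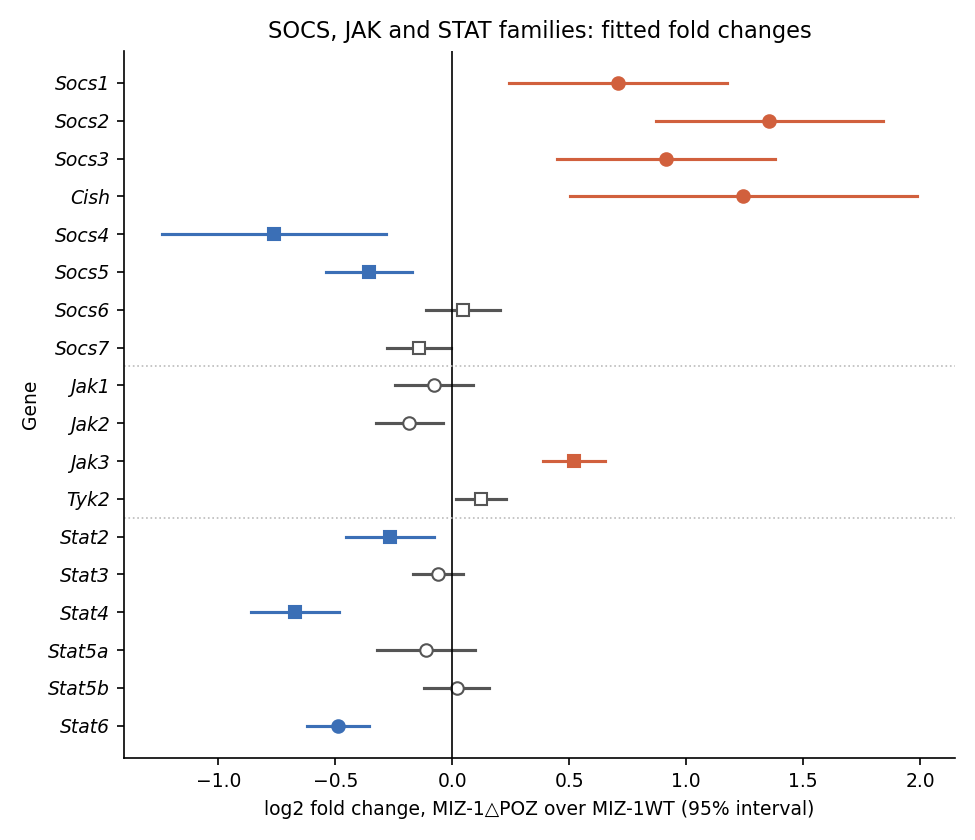
Fitted log2 fold change of MIZ-1△POZ over MIZ-1WT with its 95% interval for genes of the SOCS, JAK and STAT families; circles are the 10 genes described, squares other genes of the families, filled symbols passed an adjusted p of 0.05 (orange higher, blue lower), and dotted lines separate the families. *Socs1*, *Socs2*, *Socs3*, *Cish* and *Jak3* were called higher and *Socs4*, *Socs5*, *Stat2*, *Stat4* and *Stat6* lower, while the intervals of *Jak2*, *Socs7* and *Tyk2* also leave out 0 without passing the adjusted threshold.

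The macrophage and plasma cell markers are given beside the suppressors, since such cells also express SOCS genes. Summed over the 15 red pulp macrophage markers, the level was 978 and 1301 CPM in MIZ-1WT and 5817 and 3637 CPM in MIZ-1△POZ, with a median log2 fold change of 1.98. Summed over the 4 plasma cell markers it was 328 and 643 CPM against 2000 and 1836 CPM, with a median log2 fold change of 1.71. Between replicates of a genotype, *Socs3* and the macrophage sum differed the same way. On the log2 CPM scale, MIZ-1△POZ replicate 1 exceeded replicate 2 by 0.52 for *Socs3* and by 0.68 for the macrophage sum. MIZ-1WT replicate 1 minus replicate 2 was -0.27 and -0.41. The plasma cell sums given above had the same order of replicates in each genotype. For *Socs1*, *Socs2* and *Cish* the difference between the MIZ-1△POZ replicates was 0.24, 0.09 and 0.06, and MIZ-1WT replicate 1 was above replicate 2 by 0.36, 0.14 and 0.78. T cell markers were low, at a summed 41.0 and 29.4 CPM in MIZ-1WT and 49.4 and 52.8 CPM in MIZ-1△POZ, with 2 of 10 called higher. The differences between replicates rest on pairs of single libraries, and the part of other cells in the suppressor levels was not tested.

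**Figure D3:**
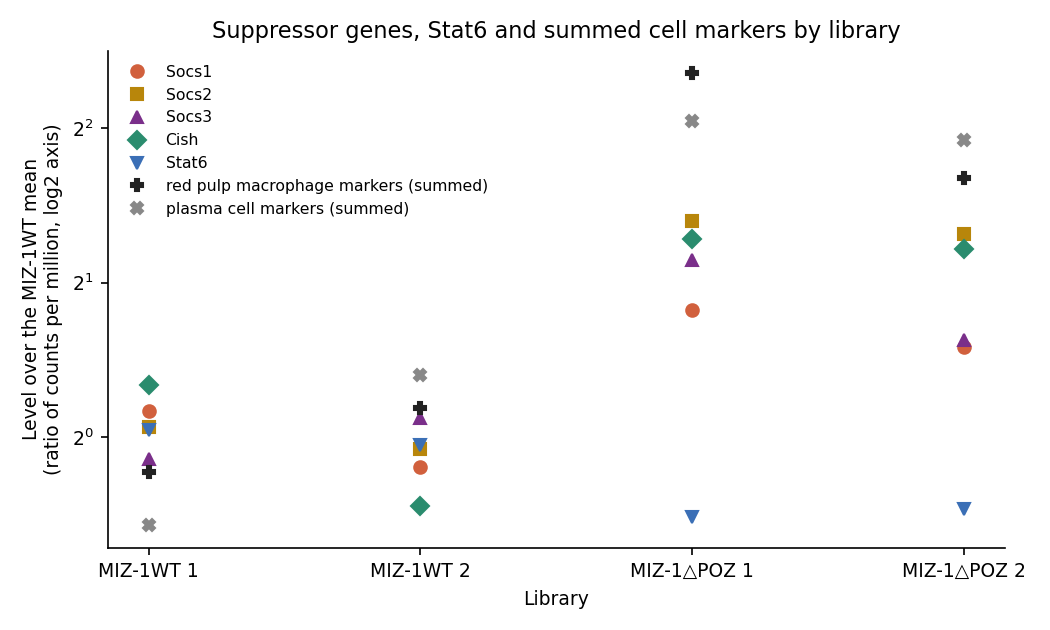
Level in each library divided by the MIZ-1WT mean (ratio of CPM, log2 axis) for the 4 suppressor genes, *Stat6*, the 15 red pulp macrophage markers and the 4 plasma cell markers. The summed markers (5817 and 3637 CPM for macrophages, 2000 and 1836 CPM for plasma cells, in MIZ-1△POZ) rise further than any suppressor. In MIZ-1△POZ replicate 2 the 4 suppressors and both marker sums are lower than in replicate 1.

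The kinases among the members were abundant and differed little. *Jak1* (ENSMUSG00000028530, chr4:101152367-101265282, minus strand), which serves receptors of the interferon, γ-chain and gp130 families, was 507 and 503 CPM in MIZ-1WT and 450 and 507 CPM in MIZ-1△POZ. The genotypes overlapped, and the log2 fold change was -0.08 (standard error 0.07, 95% interval -0.24 to 0.09, adjusted p = 0.400). Without MIZ-1△POZ replicate 1, the lowest library, it was 0.01. *Jak2* (ENSMUSG00000024789, chr19:29251828-29313080, plus strand), which serves the interferon-γ, IL-3, growth hormone and erythropoietin receptors, was 204 and 218 CPM in MIZ-1WT and 179 and 192 CPM in MIZ-1△POZ. Both MIZ-1△POZ libraries were below both MIZ-1WT libraries, but the difference of -0.18 (standard error 0.06, 95% interval -0.33 to -0.04) missed the threshold narrowly at an adjusted p of 0.0511. It passed at 0.0465 with DESeq2's size factors, at 0.0421 in DESeq2's Wald test and at 0.0332 without a filter on counts. It did not pass with genes under a mean of 30 CPM left out (adjusted p = 0.187) or with a block for replicate number (adjusted p = 0.0586). With 1 library left out, its log2 fold change lay between -0.23 and -0.13.

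Of the remaining kinases, *Jak3*, the partner of the common γ chain, rose from 61.6 and 62.1 CPM in MIZ-1WT to 91.2 and 86.2 CPM in MIZ-1△POZ (log2 fold change 0.52, standard error 0.05, adjusted p = 0.00198), and 7.55% of its exon bases are shared with *Insl3* on the same strand. *Tyk2*, which serves the type I interferon, IL-10 and IL-12 receptors, was 101 and 99.8 CPM against 109 and 110 CPM and was not called (log2 fold change 0.12, adjusted p = 0.0714). *Il2rg*, the γ chain that JAK3 attaches to, moved the other way from *Jak3*: it was 163 CPM in both MIZ-1WT libraries and 126 and 135 CPM in MIZ-1△POZ (log2 fold change -0.32, adjusted p = 0.00639). *Il2rg* was named after its values were seen, and 30.5% of its exon bases are shared with *Gm20489* on the same strand.

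*Stat6* (ENSMUSG00000002147, chr10:127642986-127660957, plus strand), the transducer of IL-4 and IL-13 signals that drives class switching to IgE, was the one STAT gene among the members to change. It had 15904 and 14336 counts in MIZ-1WT and 11743 and 11264 counts in MIZ-1△POZ, or 364 and 341 CPM against 247 and 257 CPM. Both MIZ-1△POZ libraries lay well below both MIZ-1WT libraries, with 353 ± 16.6 CPM (SD, n = 2) in MIZ-1WT and 252 ± 7.01 CPM (SD, n = 2) in MIZ-1△POZ. *Stat6* was called at a log2 fold change of -0.49 (standard error 0.05, 95% interval -0.62 to -0.36, adjusted p = 0.00237). It was past the threshold under all 5 processing alternatives and whichever library was left out, between -0.53 and -0.44 in the latter case. The last 40 bases of *Stat6* overlap exons of *Nab2*, which was lower as well, on the opposite strand (0.909% of the *Stat6* exon bases). Among the B cell markers, log2 fold changes ranged from -0.48 to 0.55 over the 10 pan-B genes, with a median of -0.24, and had a median of -0.51 over the 5 follicular B genes tested. Some B cell markers thus fell about as much as *Stat6*, and their part in its level was not tested.

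*Stat3*, *Stat5a* and *Stat5b* lie next to each other on chromosome 11 and none was called. *Stat3* (ENSMUSG00000004040, chr11:100885098-100939540, minus strand) was 213 and 210 CPM in MIZ-1WT and 206 and 201 CPM in MIZ-1△POZ, at a log2 fold change of -0.06 (95% interval -0.17 to 0.05, adjusted p = 0.315). *Stat5a* (ENSMUSG00000004043, chr11:100859351-100885169, plus strand) was 38.9 and 40.8 CPM against 34.3 and 39.6 CPM, at -0.11 (95% interval -0.32 to 0.10, adjusted p = 0.339). Its end overlaps *Stat3* by 72 exon bases on the opposite strand. *Stat5b* (ENSMUSG00000020919, chr11:100780731-100850724, minus strand) was 99.4 and 102 CPM against 98.0 and 106 CPM, at 0.02 (95% interval -0.12 to 0.16, adjusted p = 0.804). The intervals of *Stat3* and *Stat5b* leave room for changes of at most 0.17 on the log2 scale in either direction. For *Stat5b*, the sign turned when MIZ-1△POZ replicate 2 was left out (-0.03), and for *Stat3* when genes under a mean of 30 CPM were left out (0.02).

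*Stat4* and *Stat2* fell. *Stat4*, the transducer of IL-12, was 104 and 91.3 CPM in MIZ-1WT and 59.9 and 62.8 CPM in MIZ-1△POZ (log2 fold change -0.67, adjusted p = 0.00253), and *Stat2*, a partner in the type I interferon complex, was 88.6 and 84.2 CPM against 67.2 and 76.7 CPM (log2 fold change -0.26, adjusted p = 0.0387). The call of *Stat2* was lost in 5 alternatives, among them the omission of MIZ-1WT replicate 1 (adjusted p = 0.195), MIZ-1WT replicate 2 (adjusted p = 0.108) or MIZ-1△POZ replicate 1 (adjusted p = 0.0701). *Gm28177* shares 26.7% of the exon bases of *Stat4* on the same strand and had at most 3 counts in any library, so reads in the shared bases may be missing from *Stat4*.

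Compared per length of transcript, the 10 genes spanned a wide range of levels. In TPM (counts per kilobase of annotated exons, scaled to a common total), *Stat6* was the highest in MIZ-1WT at 213 and 198 TPM, above *Jak1* at 181 and 178 TPM. In MIZ-1△POZ the order of these genes was exchanged, with *Jak1* at 176 and 188 TPM and *Stat6* at 159 and 156 TPM, and in neither genotype did their libraries overlap. *Jak2* (107 TPM in MIZ-1WT and 102 TPM in MIZ-1△POZ, means), *Stat3* (57.0 and 58.9 TPM) and *Stat5b* (46.6 and 50.8 TPM) came next in both genotypes. TPM left out the normalization factors used for CPM and the fit. A small difference between genotypes can therefore differ in sign, as for *Stat3* with its fitted log2 fold change of -0.06. *Socs3* lay below *Stat5a* in MIZ-1WT, at a mean of 10.7 TPM against 14.3 TPM, and above it in MIZ-1△POZ, at 21.9 TPM against 14.3 TPM. *Socs1* followed at 2.75 TPM in MIZ-1WT and 4.84 TPM in MIZ-1△POZ. *Cish* and *Socs2* were lowest and overlapped with each other in both genotypes, at 0.297 and 0.276 TPM in MIZ-1WT and 0.760 and 0.762 TPM in MIZ-1△POZ. By mean CPM over the 4 libraries, which follows the number of counts and is not per length, the suppressors lay between percentiles 18.1 and 47.4 of all tested genes and the kinases and STAT genes between percentiles 64.2 and 98.2.

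**Figure D4:**
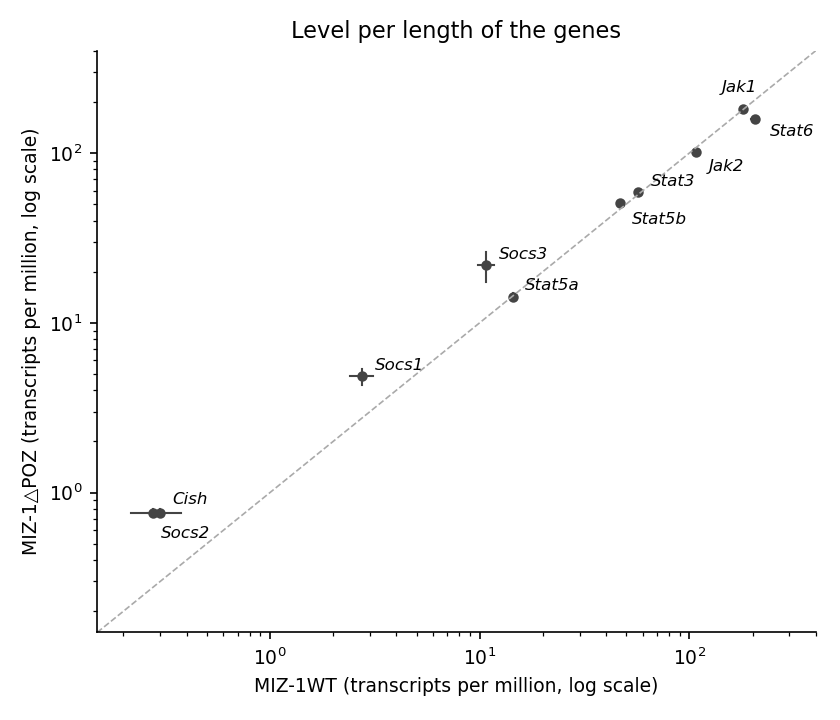
Mean level per length of each of the 10 genes in MIZ-1WT (horizontal) against MIZ-1△POZ (vertical), in TPM on log axes; lines through each point span the 2 libraries of a genotype and the dashed line marks equal levels. *Socs1*, *Socs2*, *Socs3* and *Cish* lie above the dashed line, *Stat6* lies below it (158 against 206 TPM), and *Cish* and *Socs2* share the lowest place. TPM left out the normalization factors of the fit, so small departures from the dashed line can differ in sign from the fitted changes.

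Partners and negative regulators of the pathway were mostly lower or not called. Of 15 genes tested, 1 was higher, 7 were lower and 7 did not pass the test, with a median log2 fold change of -0.07. Among all tested genes, 21.1% were called higher and 18.9% lower. *Ptpn1*, whose product PTP1B dephosphorylates JAK2 and TYK2, was 156 and 188 CPM in MIZ-1WT and 234 and 217 CPM in MIZ-1△POZ (log2 fold change 0.39, adjusted p = 0.0225, and 0.0906 without MIZ-1WT replicate 1). *Ptpn6*, which encodes the phosphatase SHP-1, fell from 1317 and 1310 CPM to 938 and 943 CPM (log2 fold change -0.48, adjusted p = 0.00202). *Sh2b3*, whose product LNK restrains JAK2, fell from 210 and 204 CPM to 151 and 168 CPM (log2 fold change -0.38, adjusted p = 0.00773, and 0.0646 without MIZ-1WT replicate 1).

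All 4 genes for PIAS proteins, SUMO ligases first described as inhibitors of activated STATs, were lower, a group singled out after its values were seen. *Pias3*, which inhibits STAT3, was 26.2 and 24.8 CPM in MIZ-1WT and 15.4 and 17.8 CPM in MIZ-1△POZ (log2 fold change -0.62, adjusted p = 0.00564). The log2 fold changes of *Pias2*, *Pias4* and *Pias1* were -0.35, -0.33 and -0.24. Without MIZ-1WT replicate 1 the lower calls in this list numbered 2, *Pias3* (adjusted p = 0.0497) and *Ptpn6* (adjusted p = 0.0241), and those of the other PIAS genes were lost. *Usp18*, an inhibitor of type I interferon signaling, was 12.8 and 7.23 CPM against 20.8 and 15.2 CPM and did not pass the test (log2 fold change 0.84, adjusted p = 0.0608). The ubiquitin ligase subunits that the SOCS box recruits, *Elob*, *Eloc*, *Cul5* and *Rnf7*, were not called.

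Cytokine receptors upstream of the kinases moved in both directions. Of 35 listed, 32 were tested, of which 14 were higher, 8 lower and 10 not called, with a median log2 fold change of 0.25. The shares over all tested genes were 21.1% higher and 18.9% lower. The IL-4 receptor chain *Il4ra*, which signals through STAT6, was 540 and 568 CPM in MIZ-1WT and 339 and 358 CPM in MIZ-1△POZ (log2 fold change -0.67, adjusted p = 0.00121). *Gm44876* lies over 9.51% of the *Il4ra* exon bases on the opposite strand. Receptor and transducer of IL-4 were therefore both lower: *Il4ra* fell by 37.1% and *Stat6* fell by 28.7%. *Il5ra*, the IL-5 receptor chain, fell from 24.2 and 23.4 CPM to 11.3 and 13.7 CPM (log2 fold change -0.93), and *Ifnar1*, a chain of the type I interferon receptor, from 207 and 211 CPM to 140 and 142 CPM (log2 fold change -0.57).

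On the other side, the receptor genes with the largest rises were *Prlr*, *Il9r* and *Epor*, whose products signal through JAK2 and STAT5 or, for the IL-9 receptor, through JAK1, JAK3 and several STATs. *Il9r* rose from 133 and 147 CPM to 719 and 709 CPM (log2 fold change 2.35, adjusted p = 8.19e-05). *Prlr*, the prolactin receptor, had 14 and 23 counts in MIZ-1WT and 135 and 95 counts in MIZ-1△POZ (log2 fold change 2.52, adjusted p = 0.00344). *Epor*, the erythropoietin receptor, had 28 and 25 counts against 149 and 112 counts (log2 fold change 2.20, adjusted p = 0.00210). Both rested on few counts, whereas *Il9r* had 5808 and 6175 counts in MIZ-1WT and 34247 and 31136 counts in MIZ-1△POZ.

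Known STAT target genes other than the suppressors did not move together. Of 17 tested, 4 were higher, 5 lower and 8 not called, with a median log2 fold change of -0.11. Over all tested genes, 21.1% were called higher and 18.9% lower. The kinase gene *Pim1*, a target of STAT3 and STAT5, rose from 59.6 CPM in both MIZ-1WT libraries to 97.6 and 88.8 CPM (log2 fold change 0.65, adjusted p = 0.00178). *Gm26885* lies over 14.5% of the *Pim1* exon bases on the opposite strand. The interferon-induced GTPase gene *Gbp2* rose from 51.1 and 50.5 CPM to 71.7 and 75.3 CPM (log2 fold change 0.53), and *Myc* from 28.1 and 23.4 CPM to 35.2 and 39.5 CPM (log2 fold change 0.53, adjusted p = 0.0139, and 0.0624 without MIZ-1WT replicate 2).

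Targets that fell included the germinal center repressor *Bcl6*, at 114 and 105 CPM in MIZ-1WT against 42.7 and 43.0 CPM in MIZ-1△POZ (log2 fold change -1.36, adjusted p = 0.000682). *Fcer2a*, which encodes CD23 and is induced by IL-4 through STAT6, was 238 and 247 CPM against 123 and 168 CPM (log2 fold change -0.74, adjusted p = 0.0109). It is also a marker of follicular B cells. Of these markers, 3 of 5 tested were lower, *Fcer2a* itself among them, while all 5 marginal zone markers were higher. The call of *Fcer2a* was lost without MIZ-1WT replicate 1 (log2 fold change -0.77) or MIZ-1WT replicate 2 (log2 fold change -0.71). *Ccnd3*, which encodes cyclin D3, was 98.9 and 117 CPM against 76.4 and 75.8 CPM (log2 fold change -0.50, adjusted p = 0.00775).

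**Figure D5:**
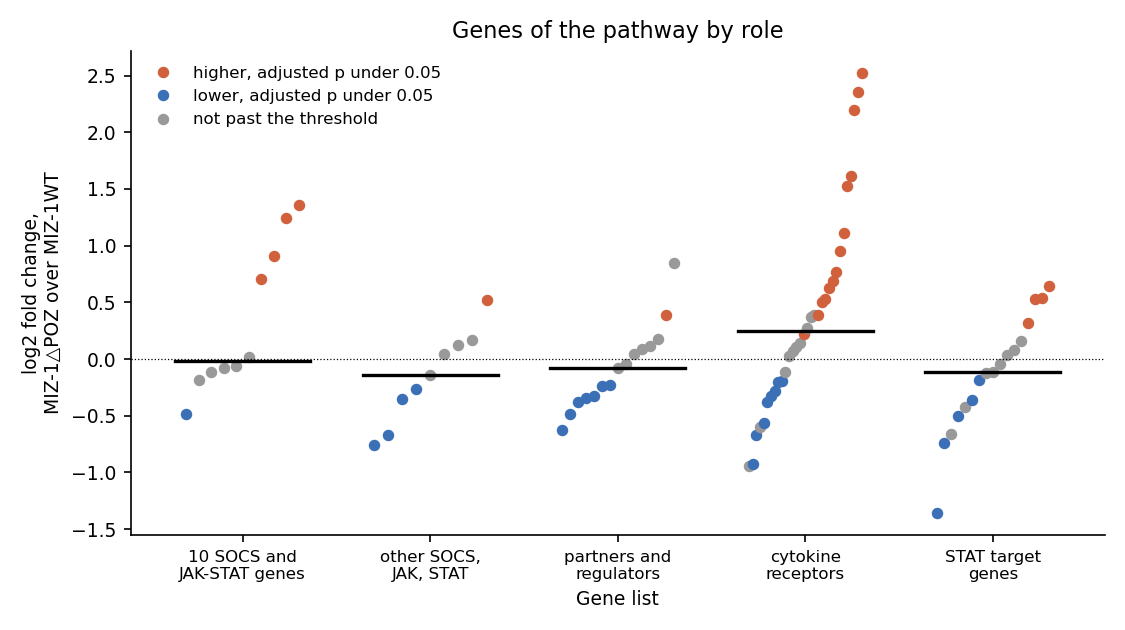
Log2 fold change of MIZ-1△POZ over MIZ-1WT for every tested gene of 5 lists, ordered by value within each list; orange points were higher and blue points lower at an adjusted p under 0.05, grey points did not pass, and black bars are medians (-0.02, -0.14, -0.07, 0.25 and -0.11 from left to right). Every list holds genes on both sides of 0, and the receptors spread furthest.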

How the data were processed

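B220+ splenocytes of MIZ-1WT and MIZ-1△POZ mice were measured by ribosome-depleted, stranded, paired-end RNA-seq, with 2 libraries per genotype as labelled. The authors trimmed the reads with Trimmomatic, mapped them to GRCm38 (mm10) with TopHat2 (version 2.1.0 in the submitters' processing notes) and deposited raw, unpooled HTSeq counts per Ensembl gene. The strand setting and annotation release of the counting are not given in the sources used here. Summary lines of HTSeq were left out. These were reads assigned to no feature (21.1% to 27.2%), ambiguous reads (0.281% to 0.302%) and reads without a unique alignment (42.8% to 44.1%). Symbols, positions and exon lengths came from GENCODE M21.

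Genes that reached 10 counts in 2 or more libraries entered edgeR 4.0.16 (R 4.3.3), with TMM normalization (factors from 0.977 to 1.03), quasi-likelihood tests and adjustment by Benjamini and Hochberg over the 14554 genes at a threshold of 0.05. CPM used TMM-scaled library sizes. Log2 CPM had a prior count of 2 for the correlation of deviations between replicate numbers, and no prior count for the printed differences between replicates. Replicates of a genotype differed by more than counting noise (chi-square per degree of freedom 9.79 in MIZ-1WT and 21.9 in MIZ-1△POZ). With 2 libraries per genotype, which the paper describes as biological duplicates, p-values rest on a spread pooled over genotypes and genes. The procedure was tested on simulated counts, with a common spread for all genes and changes of a single size. That test checks the running of the procedure and not the calls of single genes.

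The members and the gene lists were chosen with earlier results of these data known. Named genes were SOCS, JAK and STAT genes, *Zbtb17* and, in each other list, up to 3 genes per direction with the largest change among those called and not overlapping. Some genes that meet this rule are not reported here. Alternatives were DESeq2 size factors, the Wald test of DESeq2 1.42.0, no filter, a stricter filter (mean of 30 CPM or more), a replicate block and leaving out each library, where the lone library of a genotype was assumed to vary like the other genotype.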

Additional observations from a re-analysis of the deposited data

How the results depend on the processing

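Precision was limited by 2 libraries per genotype and, for *Socs1*, *Socs2* and *Cish*, by low counts. The stricter filter (mean of 30 CPM or more) removed all 4 suppressors, so that 0 members were higher. It also gave 2 higher and 2 lower among the other SOCS, JAK and STAT genes, 3 higher among partners and regulators, and 5 higher and 4 lower among the receptors, with 13 partners and 14 receptors tested. Members lower numbered 2 with DESeq2 size factors, with the Wald test and without a filter, through *Jak2*, and partners higher numbered 2 with the Wald test and without a filter.

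With 1 library left out, members higher ranged from 2 to 4 and lower from 1 to 2. For the other family genes the ranges were 1 to 2 higher and 1 to 4 lower, for partners 1 to 2 higher and 2 to 6 lower, for receptors 8 to 14 higher and 4 to 8 lower, and for STAT targets 3 to 5 lower. The log2 fold change changed sign for *Stat3* (0.017 with the 30 CPM filter) and, with 1 library left out, for *Jak1* (from -0.155 without MIZ-1△POZ replicate 2 to 0.0081 without MIZ-1△POZ replicate 1), *Stat5b* (from -0.028 without MIZ-1△POZ replicate 2 to 0.077 without MIZ-1△POZ replicate 1) and *Socs6* (from -0.0023 without MIZ-1WT replicate 2 to 0.094 without MIZ-1WT replicate 1), and none of these was called either way. Other genes moved up as *Stat3* did under the 30 CPM filter, for which the normalization factors were computed anew. *Jak1* went from -0.077 to -0.001, *Stat6* from -0.487 to -0.411 and *Il9r* from 2.35 to 2.43. The cause of the sign changes was not tested. Over all genes, 5822 were called in all, 2746 of 6052 with the 30 CPM filter, 2204 without MIZ-1WT replicate 1 and 2825 without MIZ-1WT replicate 2.

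Libraries with the same replicate number showed nearly no shared deviation (correlation of deviations -0.07). It comes from 2 pairs, too few to tell whether the numbers pair the libraries. With a replicate block, 4 members were higher and 1 lower, partners higher numbered 2, *Stat2* lost its call (adjusted p = 0.0633), and 4732 genes were called in all.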

Other observations

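Receptor chains that share a signaling subunit did not all move in the same direction, a description chosen after the values were seen. *Csf2rb*, the common β chain of the IL-3, IL-5 and GM-CSF receptors, rose from 28.3 and 26.6 CPM in MIZ-1WT to 53.6 and 52.5 CPM in MIZ-1△POZ (log2 fold change 0.95, adjusted p = 0.000807), whereas *Il5ra*, which pairs with it, fell. *Il3ra* (log2 fold change 0.68, adjusted p = 0.0182) and *Csf2ra* (log2 fold change 0.53, adjusted p = 0.00764), which also pair with *Csf2rb*, rose with it. *Il6st*, which encodes gp130, rose from 45.3 and 47.5 CPM to 75.7 and 67.9 CPM (log2 fold change 0.63, adjusted p = 0.00252). Among chains that signal with gp130, *Il6ra* rose (log2 fold change 0.38, adjusted p = 0.0250) and *Il27ra* fell (log2 fold change -0.28, adjusted p = 0.0241). *Lifr* and *Il11ra1* were not called. *Il13ra1*, the chain that pairs with the IL-4 receptor chain outside lymphocytes, rose from 3.92 and 6.18 CPM to 17.5 and 13.3 CPM (log2 fold change 1.61, adjusted p = 0.00560), while *Il4ra* and *Il2rg* fell. The red pulp macrophage markers rose as well, and their part in the receptor levels was not tested.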
